A study of Mus musculus with 8 samples.

Results

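The genes described here are 32 genes induced in reactive astrocytes, chosen as a named list and found by symbol among the 24883 rows of a table of gene expression in mouse visual cortex. All 32 were found, each in 1 row. RNA was sequenced from the visual cortex of adult C57BL/6J mice that had received an intracortical injection on postnatal day 122 and were sampled on postnatal day 129, 7 days later. In 4 samples the injected substance was an LNA (locked nucleic acid) oligonucleotide of scrambled sequence, the control, and in 4 it was an LNA oligonucleotide complementary to miR-29a. An LNA oligonucleotide is a short, chemically stiffened nucleic acid, and one complementary to a microRNA pairs with it and blocks it. Both groups were injected, and no uninjected cortex was analysed here, so the values compare 2 oligonucleotides and do not measure the response to the injection itself. The labels do not state that each sample is a different mouse, and p-values therefore reflect only how far these samples scatter, some of which may be technical.

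Astrocytes respond to injury, inflammation and mechanical damage by entering reactive states, in which they enlarge, make more intermediate filament protein and secrete protease inhibitors, cytokines and acute-phase proteins. A main route is the IL-6 cytokine family: the cytokines bind receptors that share the gp130 chain, the JAK kinases phosphorylate STAT3, and STAT3 switches on genes such as Gfap and its own inhibitor Socs3. A needle track in cortex is a classical trigger. Several of these genes are not specific to astrocytes: Vim is also made by endothelial cells and fibroblasts, Cd44, Lgals3 and Srgn by macrophages and microglia, and Lcn2 and Ptx3 by myeloid cells. In bulk tissue, fewer or more cells of a type and less or more RNA per cell cannot be told apart.

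The sequence of the blocked microRNA and its close relatives is shown first, because the seed (bases 2 to 8, in capitals) is the part by which a microRNA finds its targets. All 3 family members share it (RefSeq, GRCm38.p6; miR-29a-3p is encoded on the minus strand at chr6:31062673-31062694).
mmu-miR-29a-3p: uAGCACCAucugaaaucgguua
mmu-miR-29b-3p: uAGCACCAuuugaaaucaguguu
mmu-miR-29c-3p: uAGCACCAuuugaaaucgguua

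A match to the seed reads TGGTGCT in a transcript. In the longest annotated 3' UTR of each gene (GENCODE M21, the mm10 assembly, transcript strand only), 3 of the 32 reactive astrocyte genes held such a match, 9.38%, beside 13.5% of the 19482 genes of the table that could be searched. These 3 sites are printed 5' to 3' with the match in capitals, and each is a 7-base match without the adenine that would extend it to 8 bases. The Cd44 site lies at chr2:102812879-102812885 on the minus strand, the Il6st site at chr13:112506451-112506457 and the Ptx3 site at chr3:66225409-66225415, both on the plus strand. No match was found for the remaining genes, Gfap and Vim among them, which says only that these letters are not in the window searched.
Cd44: catggctgtgtttgtTGGTGCTt
Il6st: cctcatatcagacagTGGTGCTg
Ptx3: ctaagccttatactgTGGTGCTt

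STAT proteins bind DNA of the form TTCNNNGAA, which reads the same on both strands. In the 250 bases before the gene start (RefSeq, GRCm38.p6), this motif was present in 5 of the 28 reactive astrocyte genes with an entry, 17.9%, beside 8.13% of all 27025 genes with one. A2m, Cd109, Clcf1 and S100a10 had no entry. The matches closest to the start are shown because STAT3 is the best-known regulator of the group; the motif is in capitals with 10 bases on each side. The motifs lie at chr11:117969512-117969520 (minus strand) for Socs3, chr5:7960356-7960364 (plus) for Steap4, chr6:135362909-135362917 (plus) for Emp1, chr11:116531796-116531804 (plus) for Sphk1 and chr14:55713548-55713556 (minus) for Tgm1. Only the Steap4 motif lies before the full GENCODE M21 extent of its gene. Those of Socs3, Emp1, Sphk1 and Tgm1 lie inside that extent. Such a match describes the letters and shows no binding.
Socs3: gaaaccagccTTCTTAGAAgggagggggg
Steap4: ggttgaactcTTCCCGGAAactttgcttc
Emp1: tccagactgaTTCATAGAAactcctttaa
Sphk1: ctgagtcaccTTCTCGGAAggcactcggg
Tgm1: tcttccccttTTCCCAGAAactcggcccc

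Expression values are FPKM, which corrects fragment numbers for transcript length and library size. Each library listed 12538 to 12769 rows at 1 FPKM or more. The depth of each library cannot be read from FPKM with confidence: a common spacing of whole reads explained only 26.8% to 35.9% of the low values compared (within 0.02 log2 units). At the median of the spacings tried this share was 5.38% to 6.73%. The best spacing put anti-miR-29a replicate 2 at 1.17 times the depth of scrambled replicate 1, and the remaining libraries at 0.983 to 1.06 times. Scrambled replicate 2 stood apart: it lay at -34.0 on the first principal component, where the 3 remaining controls ranged from -10.6 to 0.889 and the anti-miR-29a group from 8.59 to 15.7. Cortical neurons and astrocytes were both well represented. Slc17a7, the vesicular glutamate transporter of excitatory neurons, read 607 ± 18.0 FPKM in the controls and 607 ± 26.4 with anti-miR-29a (SD, n = 4 per group, as for every mean below, the scrambled group first). The astrocyte genes Aldh1l1 and Aqp4 read 17.3 ± 0.676 and 17.4 ± 2.65 FPKM and 17.5 ± 3.30 and 21.3 ± 3.39 FPKM. The 13912 rows averaging 0.5 FPKM or more entered limma as log2(FPKM + 0.1), a scale that understates the change of low genes. Benjamini-Hochberg adjustment ran over all 13912 rows.

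Setting anti-miR-29a beside scrambled libraries asks whether reactive astrocyte genes differ in level after injection of the miR-29a blocker. Of the 32 genes 26 reached a mean of 0.5 FPKM and 6 were low. No gene of the 26 passed (limma, smallest adjusted p = 0.351), where 0.0144% of all tested rows did. Before adjustment, limma gave p under 0.05 for 5 of them on the higher side, where the background is 7.54% of rows, and for 0 on the lower side, where it is 3.18%. These 5 were Aspg, S100a10, S100a6, Cd44 and Gfap. The count was 1 without scrambled replicate 2, 2 without scrambled replicate 4, 3 without anti-miR-29a replicate 4 and 0 without anti-miR-29a replicate 2 (smallest adjusted p = 0.57 in that last fit). In none of the 26 genes did all 4 anti-miR-29a libraries lie above all 4 scrambled ones or all below, which 4.02% and 2.29% of tested rows did.

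Although no single gene passed, 22 of the 26 log2 differences were positive, beside 56.6% of all tested rows, and the median was 0.34 (all tested rows 0.026). The median was 0.19 both without scrambled replicate 2 and without anti-miR-29a replicate 2, and it lay between 0.26 and 0.44 without any other single library. The 26 genes are not independent of each other, and 1 of them, Emp1, would have missed the filter on its scrambled values alone. These counts are therefore a description of the list and carry no test.

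**Figure D1:**
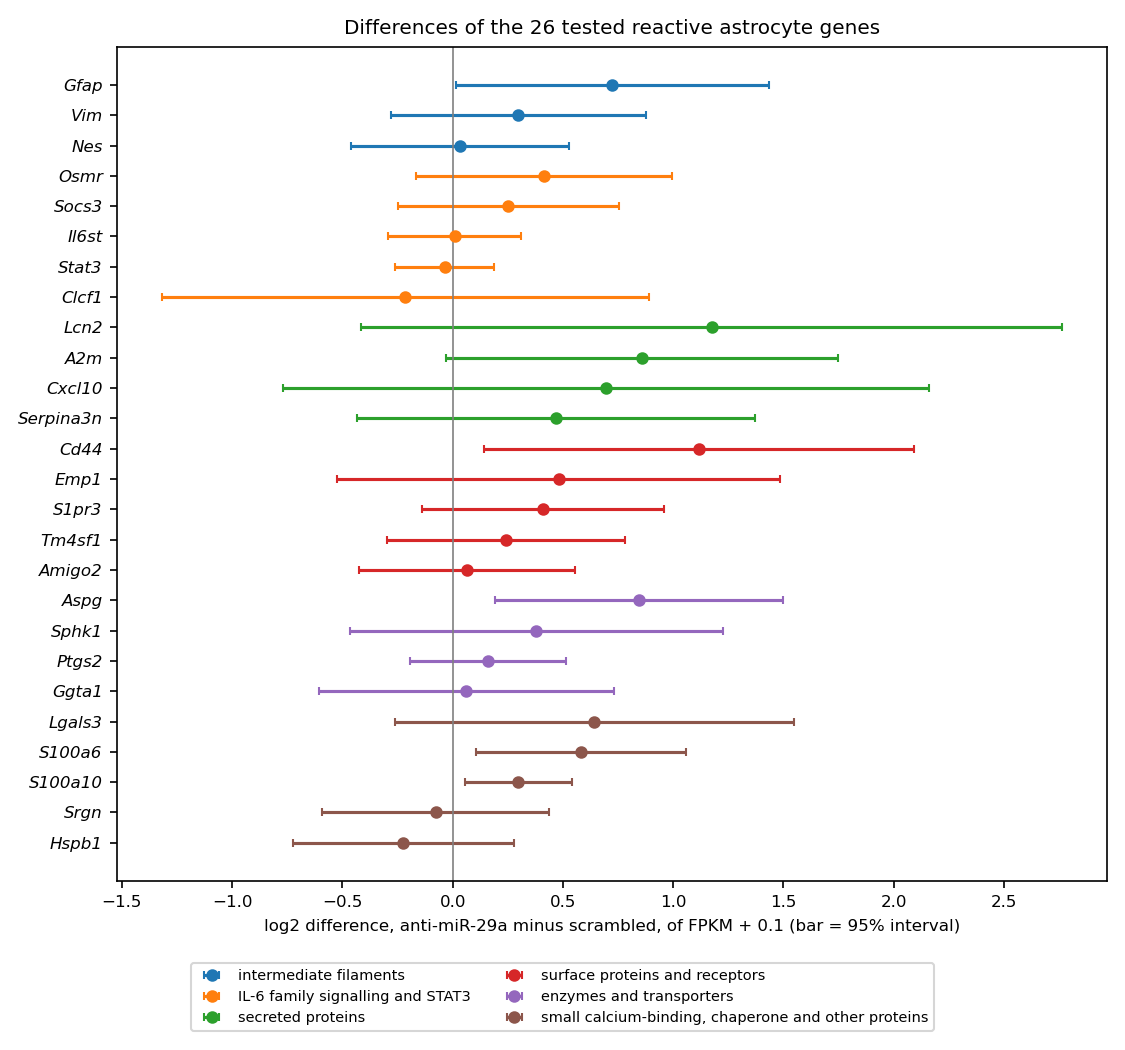
Log2 difference of anti-miR-29a minus scrambled libraries for the 26 tested reactive astrocyte genes, on the log2(FPKM + 0.1) scale, with 95% intervals from limma (4 libraries per group) and colours by role. Lcn2 has the highest value at 1.17 with a wide interval, Hspb1 the lowest at -0.22, and only the intervals of Gfap, Cd44, Aspg, S100a6 and S100a10 exclude 0 before adjustment.

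Intermediate filament genes build the cytoskeleton of the reactive astrocyte, and Gfap, the glial fibrillary acidic protein and the usual stain for these cells, was the most abundant of the 32 on the length-scaled FPKM scale. Gfap lies on chromosome 11 at 102887336 to 102900912 (minus strand, mm10). It read 248, 109, 207 and 111 FPKM in scrambled replicates 1 to 4 and 163, 392, 233 and 311 FPKM in anti-miR-29a replicates 1 to 4. Scrambled replicates 2 and 4 were the lowest libraries and anti-miR-29a replicates 2 and 4 the highest, while the other 4 interleaved between them. The means were 169 ± 70.1 and 275 ± 98.8 FPKM, a log2 difference of 0.72 with a standard error of 0.32, which missed the threshold (limma, adjusted p = 0.457; exact two-sided permutation p = 0.171, where the smallest that 70 relabellings can give is 0.0286).

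Vim, the vimentin filament gene (chromosome 2, 13573927 to 13582826), had nearly the same order of libraries as Gfap. In scrambled replicates 1 to 4 it read 46.0, 23.8, 37.5 and 23.7 FPKM, and in anti-miR-29a replicates 1 to 4 it read 27.9, 59.5, 35.1 and 38.0 FPKM. The same pair of scrambled libraries was lowest and anti-miR-29a replicate 2 highest, with scrambled replicate 1 now in second place. Its log2 difference was 0.30 (standard error 0.26; limma, adjusted p = 0.716) and lay between 0.09 (without anti-miR-29a replicate 2) and 0.48 (without scrambled replicate 1) when 1 library was left out.

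Nes encodes nestin, a filament of neural precursors that reactive astrocytes take up again. Its scrambled values were 1.79, 1.19, 1.55 and 1.34 FPKM and its anti-miR-29a values 1.05, 1.72, 1.42 and 1.88 FPKM, so the groups overlapped almost fully. The log2 difference of 0.03 had a 95% interval of -0.46 to 0.53, which leaves differences of moderate size in either direction possible, and its sign turned under quantile normalization and without 4 of the 8 libraries in turn.

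**Figure D2:**
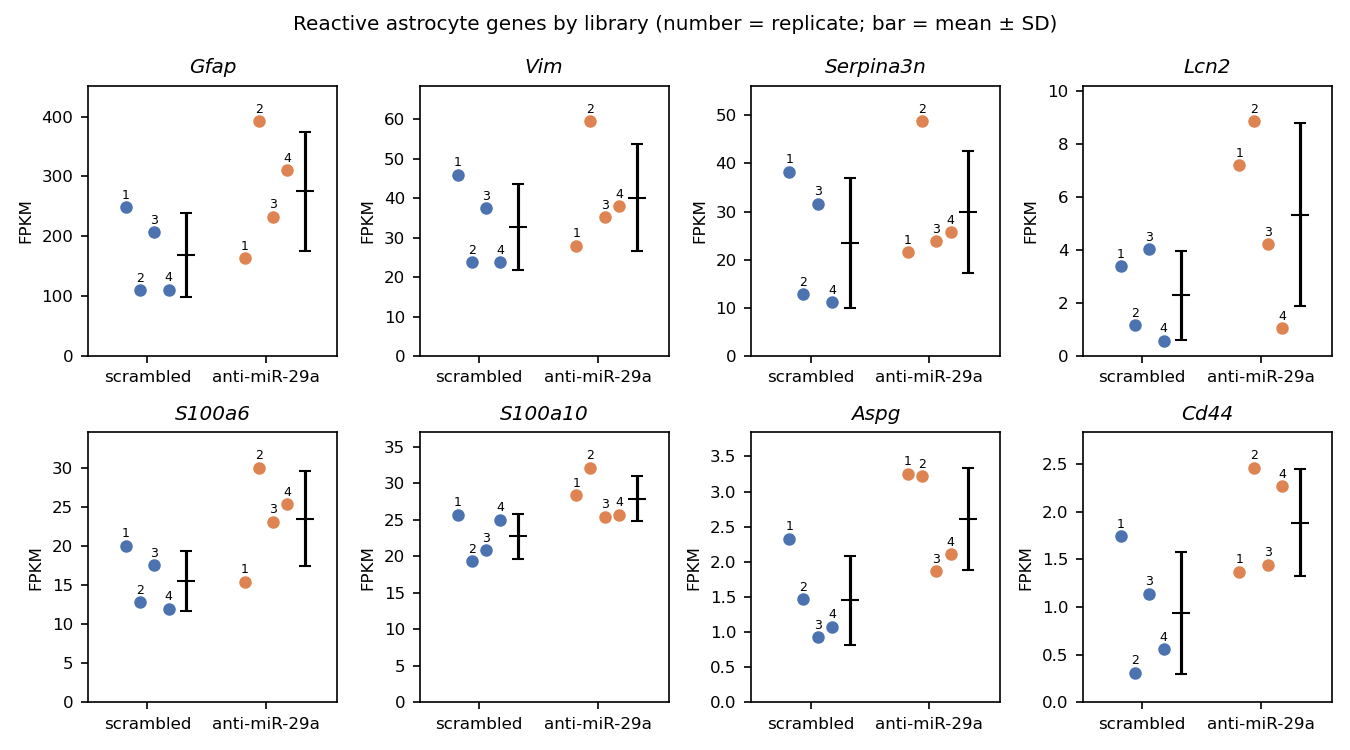
FPKM of 8 reactive astrocyte genes in each library, with the replicate number above each point and the mean ± SD as a black bar, each axis starting at 0. In Gfap and Vim the scrambled libraries fall into a high pair (replicates 1 and 3) and a low pair (replicates 2 and 4), and anti-miR-29a replicate 2 is the highest library in 7 of the 8 panels, all but Aspg.

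The IL-6 family and STAT3 genes had the smallest median of the 6 role groups, 0.009, with 3 of 5 log2 differences positive. Osmr, the oncostatin M receptor chain that pairs with gp130, read 2.44, 2.10, 1.42 and 1.45 FPKM in scrambled and 1.85, 3.84, 1.93 and 2.57 FPKM in anti-miR-29a libraries. Its 2 highest libraries were anti-miR-29a replicates 2 and 4 and its 2 lowest were scrambled replicates 3 and 4. The log2 difference was 0.41 ± 0.26 (standard error; limma, adjusted p = 0.609), and 0.20 without anti-miR-29a replicate 2.

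Stat3, the transcription factor of the pathway, lies on chromosome 11 at 100885098 to 100939540. It was even across libraries, at 11.9, 8.88, 9.22 and 9.26 FPKM in scrambled and 9.13, 9.93, 9.79 and 9.21 FPKM in anti-miR-29a libraries. Scrambled replicate 1 stood above all the others. The log2 difference was -0.04 with a 95% interval of -0.26 to 0.19, and it was 0.06 without that library. Il6st, the gp130 chain, read 10.8 ± 1.81 and 10.8 ± 1.36 FPKM (difference 0.01, interval -0.29 to 0.31), and its sign turned under quantile normalization and median centring. Socs3, the feedback inhibitor, read 1.69 ± 0.425 and 2.03 ± 0.520 FPKM, a log2 difference of 0.25 that was 0.10 without anti-miR-29a replicate 2 and 0.40 without scrambled replicate 3. Clcf1, a cytokine of the family, lay close to the filter at 0.781 ± 0.380 and 0.634 ± 0.314 FPKM. Its difference of -0.21 was -0.65 without scrambled replicate 2 and 0.06 without anti-miR-29a replicate 1.

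Genes of the same pathway outside the list were looked at through 28 cytokines, receptors, JAK kinases and feedback genes. Of the 23 that were tested none passed over all rows (limma, smallest adjusted p = 0.266). At an unadjusted p under 0.05, 2 of 23 were higher (7.54% of all tested rows) and 0 lower (3.18%). Positive differences made up 14 of 23 (56.6% of all tested rows), so these counts lay near the background, and the median was 0.080. Socs2, a suppressor of cytokine signalling, read 3.58 ± 0.609 and 5.58 ± 1.20 FPKM, and its groups did not overlap. Such a separation, with the anti-miR-29a group higher, was found in 1 of the 23 tested genes. In all tested rows its share was 4.02%, so this count too lay near the background. Cebpd, a C/EBP transcription factor of the acute-phase response, read 1.38 ± 0.389 and 2.45 ± 1.04 FPKM. Lifr, the receptor of leukaemia inhibitory factor, had a log2 difference of -0.23 and Cntf, an astrocyte cytokine, one of 0.50. The cytokine messages Il6, Il11, Lif and Osm were all low, with group means from 0 to 0.262 FPKM.

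Genes of secreted proteins had the largest median of the role groups, 0.78 over the 4 tested, and also the widest spread within groups. Serpina3n, a serine protease inhibitor secreted by reactive astrocytes, lies on chromosome 12 at 104406729 to 104414329. It read 38.3, 12.9, 31.6 and 11.1 FPKM in the scrambled and 21.6, 48.8, 23.8 and 25.7 FPKM in the anti-miR-29a libraries. The scrambled libraries split into the same high and low pairs as for Gfap, and the highest was 3.43 times the lowest. Anti-miR-29a replicate 2 stood far above the other 3 of its group, which lay below scrambled replicates 1 and 3. The log2 difference was 0.47 (standard error 0.41; limma, adjusted p = 0.714). With 1 library left out it lay between 0.18 (without scrambled replicate 4) and 0.77 (without scrambled replicate 1).

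Lcn2, lipocalin 2, an iron-siderophore binding protein that is strongly induced in inflamed brain, had the largest log2 difference of the 26, 1.17, with a standard error of 0.71. Its values were 3.38, 1.17, 4.05 and 0.579 FPKM in scrambled and 7.22, 8.87, 4.23 and 1.04 FPKM in anti-miR-29a libraries. In 3 of the 4 anti-miR-29a libraries it was above every scrambled one, but anti-miR-29a replicate 4 was the second lowest of all 8, and the threshold was missed (limma, adjusted p = 0.592; exact permutation p = 0.229). Without anti-miR-29a replicate 4 the difference was 1.81, and without scrambled replicate 4 it was 0.69. A2m, the broad protease inhibitor alpha-2-macroglobulin, read 2.31, 0.773, 1.88 and 0.828 FPKM and 1.97, 4.49, 1.61 and 2.47 FPKM (difference 0.86, standard error 0.40; limma, adjusted p = 0.479; exact permutation p = 0.171). Its lowest libraries were again scrambled replicates 2 and 4.

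Cxcl10, a chemokine switched on by interferon, did not follow the filament genes. It read 3.04, 0.902, 0.518 and 0.423 FPKM in scrambled and 0.413, 2.54, 2.81 and 1.67 FPKM in anti-miR-29a libraries. Scrambled replicate 1 was the highest of all 8 and anti-miR-29a replicate 1 the lowest, and the difference was 0.70 (standard error 0.66). It ranged from 0.38 without scrambled replicate 4 to 1.25 without anti-miR-29a replicate 1.

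Among surface proteins and receptors all 5 tested genes had a positive difference, with a median of 0.41. Cd44, the hyaluronan receptor, had the largest. It lies on chromosome 2 at 102811141 to 102901665 on the minus strand and holds the seed match printed above. Scrambled replicates 1 to 4 read 1.74, 0.313, 1.14 and 0.559 FPKM, and anti-miR-29a replicates 1 to 4 read 1.37, 2.46, 1.44 and 2.27 FPKM. All 3 of scrambled replicates 2, 3 and 4 lay below every anti-miR-29a library, and scrambled replicate 1 lay above 2 of them. The log2 difference was 1.12 with a standard error of 0.44 (limma, unadjusted p = 0.0289, adjusted p = 0.402; exact permutation p = 0.114), and it was 0.61 with a pseudocount of 1 FPKM.

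S1pr3, a receptor for sphingosine 1-phosphate, read 3.44, 2.14, 3.19 and 1.65 FPKM in scrambled libraries and 2.83, 4.70, 2.94 and 3.25 FPKM in anti-miR-29a libraries. The low pair was once more scrambled replicates 2 and 4, and the log2 difference was 0.41 ± 0.25 (standard error; limma, adjusted p = 0.587). Without scrambled replicate 4 it was 0.22 and without anti-miR-29a replicate 2 it was 0.25. Tm4sf1, a tetraspanin-like membrane protein, Amigo2, an adhesion protein, and Emp1, an epithelial membrane protein, differed by 0.24, 0.07 and 0.48. With 1 library left out, the ranges were 0.02 to 0.41 for Tm4sf1 and -0.09 to 0.20 for Amigo2, each lowest without scrambled replicate 2 and highest without scrambled replicate 1. For Emp1 the range was 0.17 without anti-miR-29a replicate 2 to 0.78 without anti-miR-29a replicate 3. Emp1, with 2 motif matches before an annotated RefSeq start, read 0.487 ± 0.167 and 0.795 ± 0.495 FPKM.

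Enzyme and transporter genes gave 4 tested genes of 8, all with a positive difference. Aspg, an asparaginase gene named in many lists of reactive astrocyte genes (chromosome 12, 112106679 to 112127559), had the smallest p of the 26. It read 2.33, 1.47, 0.928 and 1.08 FPKM in scrambled and 3.26, 3.22, 1.86 and 2.11 FPKM in anti-miR-29a libraries. Only scrambled replicate 1 kept the groups from separating, since it lay above anti-miR-29a replicates 3 and 4. The means were 1.45 ± 0.628 and 2.61 ± 0.728 FPKM, a log2 difference of 0.85 with a standard error of 0.29 (limma, unadjusted p = 0.0163, adjusted p = 0.351; exact permutation p = 0.0857).

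Sphk1, which makes sphingosine 1-phosphate, the ligand of S1pr3, read 0.724 ± 0.309 and 0.965 ± 0.359 FPKM. Ptgs2, the inducible cyclooxygenase, which cortical neurons also express with activity, read 2.73 ± 0.453 and 3.06 ± 0.418 FPKM. Ggta1, an alpha-galactosyltransferase, read 1.97 ± 0.495 and 2.15 ± 0.869 FPKM, a difference of 0.06 that turned negative without any one of scrambled replicates 2 and 4 and anti-miR-29a replicates 2 and 4. The differences of Sphk1 and Ptgs2, 0.38 and 0.16, were 0.16 without scrambled replicate 2 and 0.05 without scrambled replicate 1. None of these 3 passed (limma, adjusted p from 0.752 to 0.957).

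The 5 small proteins, which all passed the filter, went different ways. S100a10, a small S100-family protein that partners annexin A2, varied least within groups among the 5 genes with an unadjusted p under 0.05. It read 25.7, 19.4, 20.8 and 25.0 FPKM in scrambled and 28.3, 32.1, 25.4 and 25.7 FPKM in anti-miR-29a libraries. Scrambled replicate 1 lay just above anti-miR-29a replicate 3 and just below replicate 4, and the remaining scrambled libraries lay below all anti-miR-29a ones. The log2 difference was 0.30 with a standard error of 0.11 (limma, unadjusted p = 0.0205, adjusted p = 0.376; exact permutation p = 0.0571). S100a10 has a short transcript (685 bases in its longest annotated form), and with a smooth trend on transcript length removed from each library its difference was 0.18.

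S100a6, the calcium-binding protein calcyclin, read 19.999, 12.8, 17.5 and 11.97 FPKM in scrambled libraries. In anti-miR-29a libraries it read 15.4, 30.0, 23.1 and 25.3 FPKM, so that 3 of 4 lay above every scrambled library and replicate 1 lay below 2 of them. The log2 difference was 0.58 with a standard error of 0.21 (limma, unadjusted p = 0.0218, adjusted p = 0.382; exact permutation p = 0.0857). S100a6 also has a short transcript (783 bases in its longest annotated form), and with the length trend removed its difference was 0.46. Without anti-miR-29a replicate 2 the difference was 0.45.

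Lgals3, the lectin galectin-3, which activated microglia also make, read 0.803, 0.959, 0.357 and 0.728 FPKM in scrambled and 0.830, 2.47, 0.914 and 0.786 FPKM in anti-miR-29a libraries. Apart from anti-miR-29a replicate 2 the values of both groups lay between 0.357 and 0.959 FPKM, and without that library the log2 difference of 0.64 was 0.28. Hspb1, a small heat shock protein, and Srgn, a proteoglycan of secretory granules, were among the 4 genes with a negative difference, -0.22 and -0.08, together with Clcf1 at -0.21 and Stat3. Hspb1 read 4.00 ± 0.865 and 3.46 ± 0.936 FPKM and Srgn 6.77 ± 2.28 and 6.22 ± 1.24 FPKM. The Hspb1 difference was -0.02 without anti-miR-29a replicate 3 and -0.35 without scrambled replicate 1, and Srgn stood at 0.11 without scrambled replicate 1 and -0.29 without scrambled replicate 4.

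The 6 low genes had means of 0.00636 to 0.481 FPKM over the 8 libraries and were not tested. Ptx3, a secreted pentraxin with a seed match, read 0.110, 0.0263, 0 and 0.167 FPKM in scrambled and 0.271, 0.906, 0.195 and 0.142 FPKM in anti-miR-29a libraries, so the groups overlapped through scrambled replicate 4. Tgm1, a transglutaminase, ranged from 0.0533 to 1.45 FPKM with its highest value in anti-miR-29a replicate 2. Steap4, a metalloreductase, ranged from 0.0797 to 0.664 FPKM, and Cd109, a membrane protein that binds TGF-beta, from 0 to 0.243 FPKM. B3gnt5, a glycosyltransferase, stayed at or under 0.130 FPKM. Slc10a6, a transporter of steroid sulfates, was listed at 0 in 7 libraries and at 0.0509 FPKM in anti-miR-29a replicate 4. With no read counts at hand, a listed 0 does not show that a message is absent.

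Classes often used for reactive astrocytes were also counted. Pan-reactive genes had 9 of 10 tested differences positive, with a median of 0.58. Genes called A1 in the literature, here only Amigo2, Ggta1 and Srgn, had 2 of 3 positive and a median of 0.06. Those called A2 had 5 of 6 tested differences positive and a median of 0.27, and 5 of the 11 A2 genes were low and not tested. Beside these counts, 56.6% of all tested rows had a positive difference. Whether these classes differ from each other was not tested.

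The spread between libraries of the same group was large in these genes. In all 26 tested genes the ratio of the highest to the lowest scrambled library exceeded the ratio of the group means (anti-miR-29a over scrambled). In 16 of them at least 1 scrambled library lay above the anti-miR-29a mean. Both had to hold for the 4 genes with a negative difference. Neither was counted over all tested rows, so these 2 counts have no background beside them and do not show a large spread. Even S100a10, which varied little, met the first, with ratios of 1.33 and 1.23. The median within-group SD was 0.44 log2 units, and 0.17 over all tested rows. Among rows of 5 FPKM or more it was 0.39 for the 8 reactive astrocyte genes and 0.12 for all 8301 rows, with 8 of the 8 genes above the latter. From 0.5 to 5 FPKM it was 0.49 for 18 genes and 0.31 for 5611 rows, with 16 of 18 above.

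Many of the genes ranked the libraries alike. Anti-miR-29a replicate 2 was the highest library in 15 of the 26 genes and among the 2 highest in 21. Scrambled replicate 2 was the lowest in 11 and scrambled replicate 4 in 6, and in 8 genes these were the 2 lowest libraries. Scrambled replicate 1 was among the 2 highest in 9 genes, as often as anti-miR-29a replicate 4. As a median over the 26 genes, scrambled replicates 1 to 4 stood at 0.30, -0.44, 0.03 and -0.28 log2 units from the gene mean, and anti-miR-29a replicates 1 to 4 at -0.04, 0.68, -0.01 and 0.15. The groups overlapped on this measure: scrambled replicate 1 stood above 3 of the 4 anti-miR-29a libraries.

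**Figure D3:**
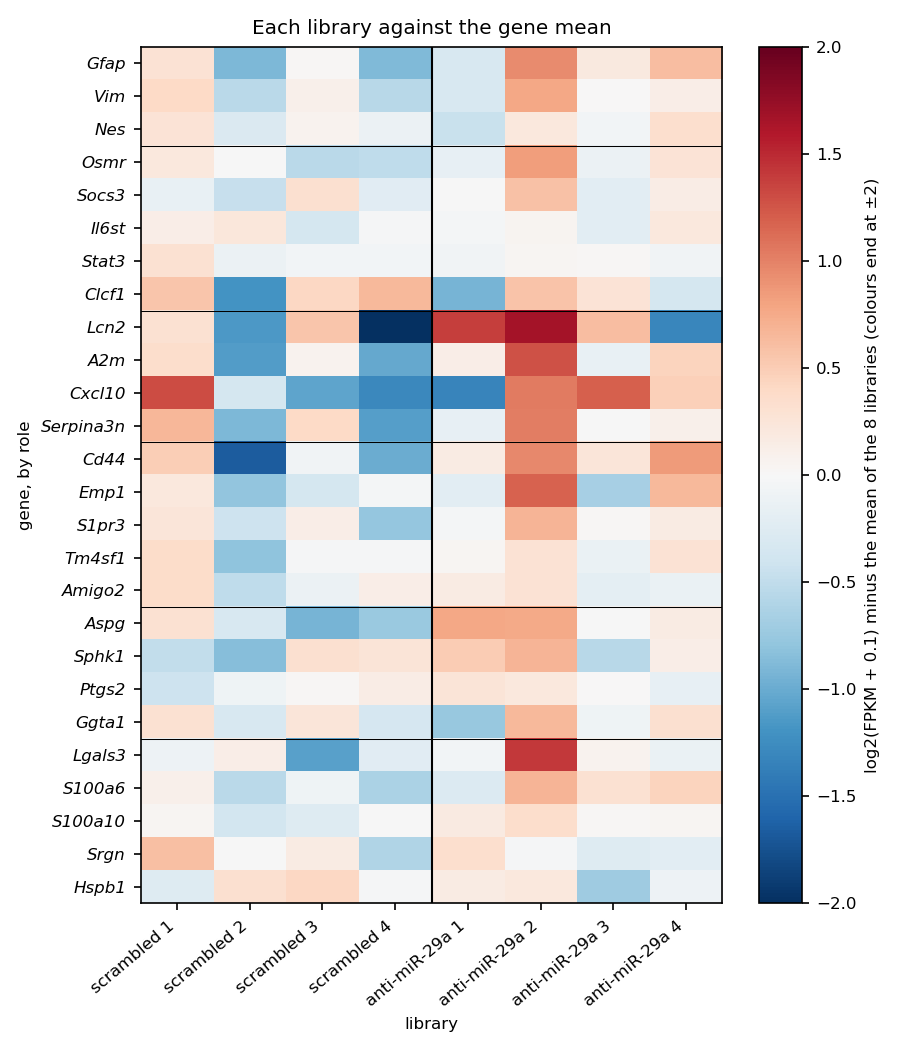
Each tested reactive astrocyte gene (rows, by role) in each library (columns), as log2(FPKM + 0.1) minus the mean of the 8 libraries; red is above and blue below that mean. The column of anti-miR-29a replicate 2 is mostly red and that of scrambled replicate 2 mostly blue, while the IL-6 family genes Il6st and Stat3 are pale throughout.

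Astrocyte genes that do not mark the reactive state varied much less. All 20 homeostatic astrocyte markers were tested, 13 differences were positive, 3 genes were higher at an unadjusted p under 0.05 (7.54% of all tested rows), and the median was 0.08, with a median within-group SD of 0.15. Their summed level was 2109 to 2261 FPKM across the controls and 2132 to 2516 FPKM with anti-miR-29a, with anti-miR-29a replicate 2 the highest. Ntsr2, a neurotensin receptor, read 51.6 ± 2.80 and 64.2 ± 5.09 FPKM and Atp1b2, a sodium pump subunit, 327 ± 18.0 and 376 ± 18.3 FPKM. In both of these the groups did not overlap (4.02% of all tested rows lay so), yet neither passed (limma, adjusted p = 0.2 and 0.232). Gja1, a gap junction connexin, and Hepacam, an adhesion protein, differed by 0.26 and 0.19, Aqp4 by 0.29, and Aldh1l1 by -0.004.

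Other genes known from reactive astrocytes but outside the 32 had 16 of 21 tested differences positive and a median of 0.24. Of the 21, 3 had an unadjusted p under 0.05 on the higher side (7.54% of all tested rows), 1 had all anti-miR-29a libraries above all scrambled ones (4.02%), and none passed (limma, smallest adjusted p = 0.273). Igfbp2, an IGF binding protein, read 18.3 ± 3.48 and 32.4 ± 12.2 FPKM with no overlap between groups. Mt1, a metallothionein, read 326 ± 43.3 and 417 ± 64.1 FPKM. C3, the central complement component, was low at 0.400 ± 0.280 and 1.08 ± 0.511 FPKM and owed its place above the filter, and so among the 21, to the second group. Serping1, the C1 inhibitor, read 4.82 ± 1.97 and 6.58 ± 1.14 FPKM.

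Markers of other cell types that share some of the 32 genes were high and low in some of the same libraries. Activated microglia and macrophage markers had 9 of 10 tested differences positive and a median of 0.38. At an unadjusted p under 0.05, 3 of the 10 were higher (7.54% of all tested rows), and in 2 of the 10 the lowest anti-miR-29a value exceeded the highest scrambled value (4.02%), although none passed (limma, smallest adjusted p = 0.201). The largest difference was that of Ms4a7, a macrophage membrane protein listed at 0 in 2 scrambled libraries, at 0.0967 ± 0.114 and 0.971 ± 0.424 FPKM, which cleared the filter only by its second group. Ms4a7 is among the 10, so these counts and the median include a gene tested only because it was high with anti-miR-29a. The summed level of these markers was 241 to 305 FPKM across the controls and 256 to 404 FPKM with anti-miR-29a, highest in anti-miR-29a replicate 2 (a median of 0.74 above the gene mean) and then in anti-miR-29a replicate 4 (0.48). The defining markers Cd68 and Gpnmb read 17.2 ± 2.55 and 23.1 ± 5.74 FPKM and 1.57 ± 0.217 and 4.42 ± 2.16 FPKM. Fibroblast markers had 7 of 9 positive, 2 of them at an unadjusted p under 0.05, and a median of 0.48, with sums of 26.2 to 46.4 and 34.9 to 67.4 FPKM, lowest in scrambled replicate 2 and highest in anti-miR-29a replicate 2. Dcn read 3.80 ± 1.36 and 5.20 ± 1.97 FPKM and Lum was low at 0.322 ± 0.182 and 0.494 ± 0.493. The part of these cells in the values of Vim, Cd44, Lgals3 and the rest was not tested.

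Resident microglia markers had 4 of 10 positive and a median of -0.04, with sums of 127 to 178 and 116 to 164 FPKM. Endothelial markers had 6 of 10 positive and a median of 0.09, with sums of 77.7 to 110 and 97.0 to 109 FPKM, and mural markers had 6 of 8 positive and a median of 0.12, with sums of 56.8 to 68.8 and 53.7 to 78.8 FPKM. Scrambled replicate 2 was the lowest library for the endothelial list too. Of 6 neutrophil markers 4 were low, S100a8 read 0.986 ± 0.808 and 1.22 ± 0.879 FPKM, and Retnlg, named after its values were seen, was listed at 0 in all 8 libraries, although Csf3r read 3.82 ± 0.572 and 3.87 ± 0.798 FPKM. Of 6 ependymal and choroid plexus markers 5 were low, and Foxj1 read 1.20 ± 0.0810 and 2.02 ± 0.314 FPKM. Oligodendrocyte markers had 0 of 8 positive (56.6% of all tested rows), with a median of -0.15 and 0 at an unadjusted p under 0.05. Their sums were 830 to 1699 FPKM in the controls, highest in scrambled replicate 1, and 929 to 1235 FPKM with anti-miR-29a. Excitatory neuron markers had 2 of 8 positive and a median of -0.04, with sums of 5100 to 5602 and 5267 to 5776 FPKM.

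**Figure D4:**
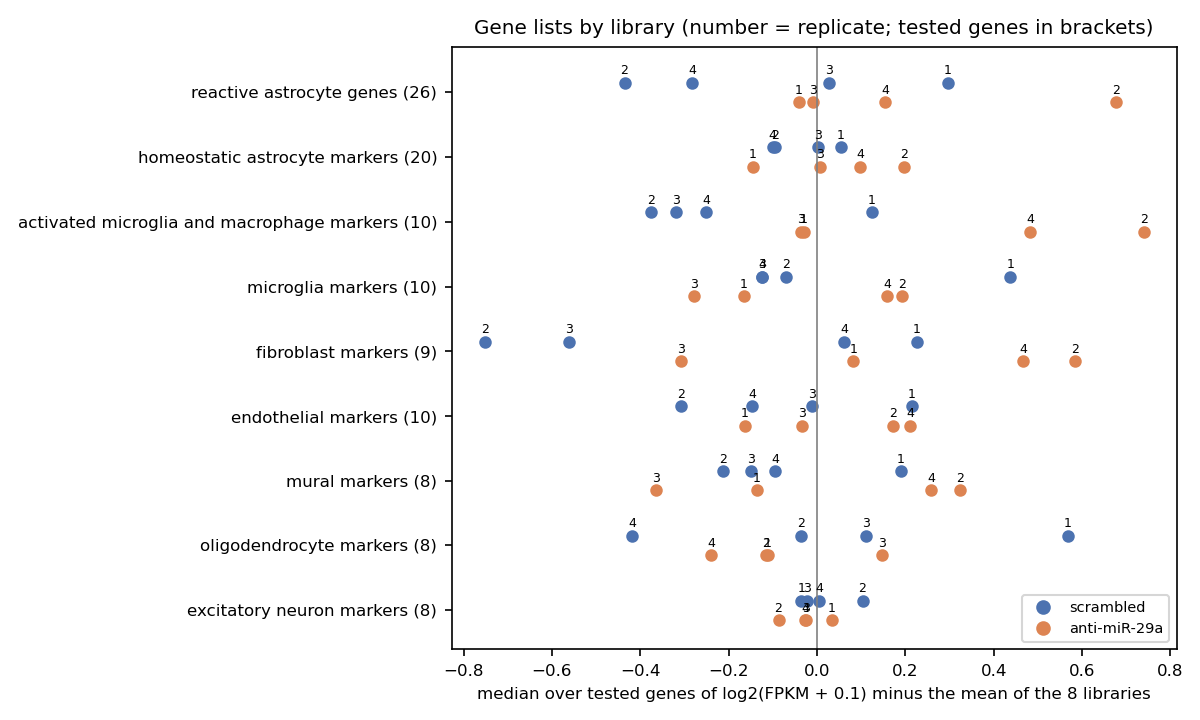
Median over the tested genes of each list of log2(FPKM + 0.1) minus the mean of the 8 libraries, 1 point per library with its replicate number, scrambled in blue and anti-miR-29a in orange. Reactive astrocyte genes and activated microglia markers spread from -0.44 to 0.68 and from -0.38 to 0.74, whereas homeostatic astrocyte markers stay between -0.14 and 0.20. A wide spread is not particular to the first 2 lists: fibroblast markers range from -0.75 to 0.58 and oligodendrocyte markers from -0.42 to 0.57.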

How the data were processed

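RNA-seq libraries from 8 samples of mouse visual cortex, 4 per group, were used. Per the labels' protocols, a TruSeq RNA v2 kit, which does not mark strand, was used with 2 × 100 bp reads and about 30000000 reads per sample. The authors deposited FPKM values. The submitters' processing notes name CASAVA 1.8.2, Bowtie, Cuffnorm and the mm10 build, with order, annotation, filters and scaling all not given in the sources used here. Total read counts per library were not used here. Of 24883 rows 537 repeat a symbol, none of them a gene named here.

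Rows with a mean of at least 0.5 FPKM were fitted as log2(FPKM + 0.1) with limma 3.58.1 (R 4.3.3), with no covariate beside group, a mean-variance trend and two-sided tests, Benjamini-Hochberg over 13912 rows, threshold 0.05. The fit was also run on simulated data with noise drawn separately for each gene. A ranking of libraries shared between genes was thus absent there, and no result here rests on that run. Exact permutation tests used all 70 relabellings. The members and lists were chosen with earlier results of these data known. Genes given library by library are the 3 filament genes, the 10 of smallest p and those with a library far from its group; Cxcl10 and Ptx3 were added after their values were seen. Other lists give up to 4 genes of smallest p and 2 defining markers, and Csf3r, Aldh1l1 and the cytokines were added likewise. Transcript lengths, positions and 3' UTRs came from GENCODE M21 (basic set for 3' UTRs). The alternatives were other pseudocounts, filters, scalings and variance settings, the replicate number as a block, a length trend removed by loess, and each library left out.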

Additional observations from a re-analysis of the deposited data

Results flagged for a closer look

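In 52 groups of 4 values (26 genes in 2 groups), 3 had a library whose gap to the nearest other was above the 95% critical share of the group's range for 4 samples, where chance flags about 1 in 20. Stat3 read 11.9 FPKM in scrambled replicate 1. Serpina3n read 48.8 FPKM in anti-miR-29a replicate 2, and Lgals3 read 2.47 FPKM in the same library.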

How the results depend on the processing

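No reactive astrocyte gene passed in any of the 18 alternatives. Positive differences numbered 18 to 24 of 26 with 1 library left out and 6 of 8 with a filter at a mean of 5 FPKM, where fewer genes were tested. Genes at an unadjusted p under 0.05 numbered 0 to 6 with 1 library left out, 3 with the filter at 5 FPKM and 3 with the replicate block. With the block these were Aspg, Lcn2 and S100a10, so Lcn2 entered and Gfap, Cd44 and S100a6 dropped out. Gfap also lay above 0.05 without a filter, with robust empirical Bayes and with the length trend removed (limma, unadjusted p = 0.0686, 0.119 and 0.0505). Over all rows limma called 2 genes, 1 without a filter, with the filter at 5 FPKM and with the length trend removed, 10 with robust empirical Bayes, 0 with the replicate block (3 of the 26 genes then had an unadjusted p under 0.05), and 1 to 3 with 1 library left out; the cause was not tested. Same-numbered samples of the 2 groups had correlations of deviations of -0.0856, 0.0142, -0.106 and -0.0972. The labels do not state that the numbers pair the samples, and such correlations cannot exclude it. The median stayed between 0.26 and 0.36 in alternatives that kept all libraries and between 0.19 and 0.44 otherwise.

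The sign turned in at least 1 alternative for 7 of the 26 genes, Clcf1 (-0.21 with all libraries) among them. Il6st stood at -0.019 and -0.021 under quantile normalization and median centring, and Nes at -0.0051 under quantile normalization. With 1 library left out the ranges were -0.11 to 0.085 for Il6st, -0.075 to 0.19 for Nes, -0.093 to 0.20 for Amigo2, -0.14 to 0.33 for Ggta1, -0.65 to 0.061 for Clcf1, -0.29 to 0.11 for Srgn and -0.080 to 0.060 for Stat3. Without read counts, the counting error of the low genes is unknown.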
